A study of Bombyx mori with 8 samples.

Results

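The subject here is a set of wide G-quadruplex peaks that only 1 of 4 silkworm (Bombyx mori) libraries called. A G-quadruplex (G4) is a DNA fold in which runs of guanines stack into planar layers. The members are the peaks of brain replicate 2 that are at least 1000 bp wide and share no base with any peak of brain replicate 1 or of either fat body replicate. They number 2583, of 33925 peaks in that list and 55134 peaks in all 4 lists. The remaining 154 of its 2737 peaks of that width overlap at least 1 other list by 1 bp or more and are called shared wide peaks. The members were thus chosen by measured values, the width and the overlaps, and both are given as descriptions with no test.

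The assay was CUT&Tag, where a Tn5 transposase tethered to the bound antibody cuts nearby DNA of isolated nuclei and adds sequencing adaptors, here with antibodies against G4. The 2 brain and 2 fat body libraries came from wild-type animals of strain P50 at the stage coded L5D3 and are labelled with BG4, a single-chain antibody raised against folded G4. Larvae were kept at 26 °C with 14 h of light and 10 h of darkness and were fed mulberry leaves. How many animals went into a library, and whether the 2 replicates of a tissue used different animals, is not in the labels, so replicate spread may be technical. The other 4 labelled samples (IgG, a brain library of stage P0 and 2 libraries of the ovarian line BmN) were not analysed here. Peak lists hold no expression values, so the labelled tissues could not be checked against markers.

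G4 folds form most readily where guanine runs lie close together, and they are known from promoters, telomeres and repeats of many animals. A folded site is short beside a sequencing fragment. A peak in CUT&Tag is wider than the site, because its width is set by where the tethered transposase cut and by the lengths of the fragments that result. A peak much wider than a fragment therefore covers a stretch of DNA with many overlapping fragments, and the narrowPeak layout records for it only the borders, 1 summit and the statistics at that summit. The larval brain is the insect's neurosecretory centre, and the fat body is its organ of storage and intermediary metabolism.

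Brain replicate 2 stands apart from the other lists in ways that apply to every result below. It holds 33925 peaks, where brain replicate 1 holds 6759 and fat body replicates 1 and 2 hold 8556 and 5894. Its deposited peak names alone record a mapping quality limit of 20 and removal of duplicates, and they name no antibody, where BG4 appears in the names of brain replicate 1 and 1H6, another G4 antibody, in those of both fat body lists. The part that antibody, read filtering and depth play in the members was not tested, and with 1 library they cannot be told apart from the sample itself. Read numbers are unknown for all 4 lists. A peak height in bulk nuclei does not tell a strong signal in few nuclei from a weak one in many.

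Wide peaks of brain replicate 2 were found in no other list more often than its narrower ones. Of the 2737 wide peaks, 2583 (94.4%, exact binomial 95% interval 93.4 to 95.2) overlapped nothing, beside 25670 of 31188 narrower peaks (82.3%, 81.9 to 82.7) and 83.3% of the whole list. A wider interval covers more bases that another peak could touch, yet the overlap was lower. The intervals cover counting of peaks only, since all peaks come from 1 library. The members made up 7.61% of the peaks of the list and 17.9% of the bases it covers, 3173 of 17765 kb.

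The same rule ran the other way in the other lists, where wide peaks were the ones found elsewhere most often. In brain replicate 1, 23 of 416 wide peaks (5.53%) were in no other list, beside 21.5% of its narrower peaks and 20.5% of all its peaks. In fat body replicate 1 these were 178 of 830 (21.4%), 40.2% and 38.4%. In fat body replicate 2 they were 15 of 386 (3.89%), 17.1% and 16.3%. The long list of brain replicate 2 is among those each of these was held against, so the levels are not on 1 scale across lists. The order of wide and narrow within a list is what differs.

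The order of the fold values turned with it. Fold is the authors' ratio of the signal at the summit to the local background, and its medians were compared within a list only. The members had a median fold of 9.97 (quartiles 7.27 and 14.4, range 2.3 to 45.6, n = 2583), and the shared wide peaks 7.68 (5.96 and 11.4, range 3.15 to 38.9, n = 154). The 95% intervals of these medians were 9.72 to 10.2 and 7.05 to 8.6. With a limit of 1500 bp, where 18 shared peaks remain, they were 9.8 to 11 and 7.37 to 12. They treat the peaks of 1 library as separate draws, so whether they meet is no test of the difference. In the other 3 lists, wide peaks in no other list had the lower median fold, at 4.85 beside 6.21 in brain replicate 1, 4.56 beside 6.11 in fat body replicate 1 and 5.88 beside 7.87 in fat body replicate 2. Over the narrower peaks of brain replicate 2 the medians kept that second order. They were 4.83 for those in no other list and 5.47 for those that overlap one. Split by width, the medians kept it from 200 to 399 bp (4.12 and 5.11) and from 400 to 599 bp (5.02 and 5.96). They had the order of the wide peaks from 600 to 799 bp (6.87 and 6.05) and from 800 to 999 bp (7.78 and 6.47). The turn thus began below the limit of 1000 bp.

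Members had higher summits than shared wide peaks over the same local background. The summit height, worked out in fragments from the authors' fold and −log10 p, had a median of 141 in members (quartiles 98 and 204, highest 2641) and 115 in shared wide peaks (79.2 and 167, highest 1942). The local background had the same median in both, 13.8 fragments. Only 19 members (0.736%) and no shared wide peak lay on the lowest background of the list, 1.76 fragments. A fold above 20 was reached by 327 members (12.7%) and by 6 shared wide peaks (3.9%).

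Width and fold were then held apart by splitting the list by fold. Among peaks with a fold from 5 to 8, 91.2% of the wide peaks (662 of 726) and 74.1% of the narrower ones (6849 of 9248) were in no other list. From 8 to 12 the shares were 95.6% and 80.3%. Above 12 the gap nearly closed, with 95.6% and 94.3% up to a fold of 20 and 98.2% (327 of 333) and 96.3% (493 of 512) above it. Up to a fold of 5 they were 90.1% (163 of 181) and 85.8%. Wide peaks thus had the higher share in each of the 5 ranges, and the gap was widest between folds of 5 and 12.

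**Figure D1:**
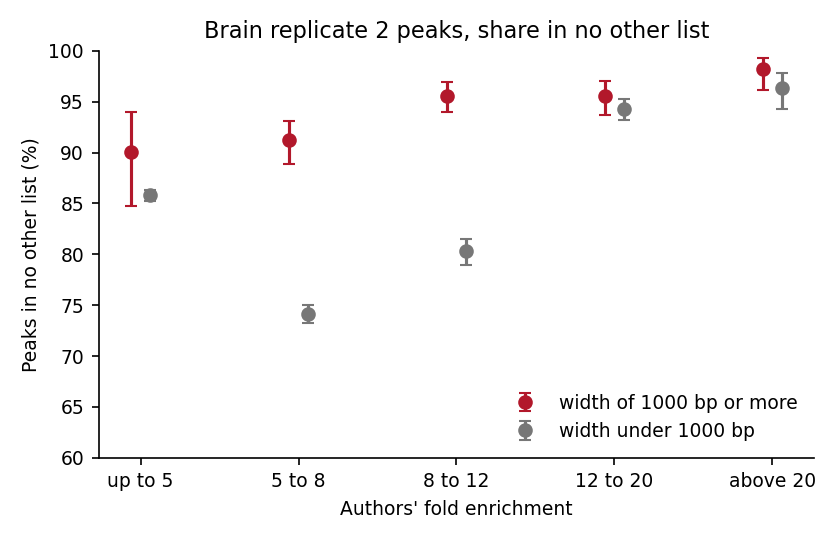
Share of brain replicate 2 peaks found in no other list (%), by range of the authors' fold, for wide and narrower peaks. Bars are exact binomial 95% intervals over peaks of 1 library and the vertical axis starts at 60%. The narrower peaks dip to 74.1% at a fold of 5 to 8 while the wide peaks stay at 90.1% or more.

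The limit of 1000 bp falls on the edge of a shoulder in the width distribution, not in a gap. In brain replicate 2, peaks in no other list numbered 4150 from 200 to 249 bp, fell to 910 from 650 to 699 bp, and then stayed level, with 974 from 950 to 999 bp. They dropped to 753 from 1000 to 1049 bp, 462 in the next 50 bp and 191 from 1150 to 1199 bp. The peaks of the same list that overlap another fell over these widths, from 144 at 650 to 699 bp to 49 at 950 to 999 bp and 14 at 1150 to 1199 bp. The other lists had no level stretch, and in brain replicate 1 the counts fell from 351 to 99 between 650 and 999 bp. The share in no other list rose from 73.5% at 400 to 449 bp to 94.3% at 850 to 899 bp, and lay between 88.1% and 97.7% in every class from there to 1799 bp.

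**Figure D2:**
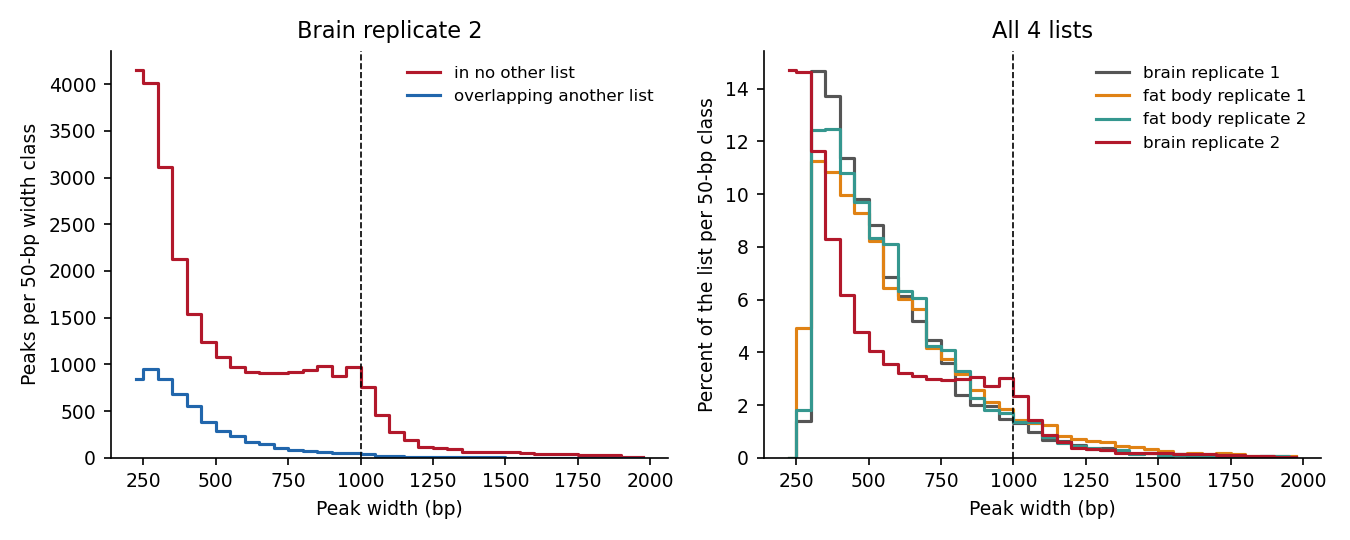
Peak widths in classes of 50 bp, as counts in brain replicate 2 (left) and as a percentage of each list (right), with the 1000-bp limit dashed. In brain replicate 2 the peaks in no other list stay near 900 to 1000 per class from 600 bp up to the limit and then drop, while the other lists decline steadily from 400 bp to the limit.

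Peaks just above the limit were somewhat stronger than those just below it and had their summits in like places. The 974 peaks in no other list from 950 to 999 bp had a median fold of 7.95 and a median height of 101 fragments, and the 753 members from 1000 to 1049 bp had 9.13 and 122. Their summits lay a median of 24.5% and 23.5% of the width from the centre. The 3 members just inside the limit, 1000 bp wide, had folds of 16 (sequence 26, 8668596 to 8669595), 12.8 (sequence 13, 14084466 to 14085465) and 13 (sequence 9, 14884359 to 14885358). The 3 peaks named just outside, 999 bp wide and picked in the same way, had folds of 11.4 (sequence 22, 9865436 to 9866434), 14.3 (sequence 23, 8314645 to 8315643) and 8.54 (sequence 10, 11948010 to 11949008). On the overlap side, the member nearest to another list lay 2 bp from it and 14 members lay under 200 bp away, while 16 shared wide peaks overlapped by under 200 bp.

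Most members were little wider than the limit. Their median width was 1110 bp (quartiles 1039 and 1310.5), close to the 1128 bp of the shared wide peaks (1044 and 1313). Of the members, 1215 were under 1100 bp, 698 from 1100 to under 1300 bp, 614 from 1300 to under 2000 bp and 56 wider. The median fold changed little over these classes, from 9.54 below 1100 bp to 10.8 from 1100 to under 1300 bp, 10.1 from there to under 2000 bp and 11.1 in wider members.

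The place of the summit changed with width, and it is a measure that the rule did not use. A summit was called centred when it lay within 10% of the width of the middle, which an even spread over the width would give in 20% of peaks. Among members of 1000 to under 1100 bp, 289 of 1215 (23.8%, 21.4 to 26.3) had a centred summit. The share was 31.4% (219 of 698) from 1100 to under 1300 bp, 48.5% (133 of 274) from 1300 to 1499 bp, 60.7% (119 of 196) from 1500 to 1699 bp and 59.7% (86 of 144) from 1700 to under 2000 bp. It was 25% (14 of 56) in wider members. Summit place therefore differed between the narrow end and the middle of the width range.

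Among members of 1000 to under 1100 bp the fullest steps lay toward both ends instead, though not at the ends themselves. The stretches from 10% to 20% and from 80% to 90% of the width held 164 and 195 of the 1215 summits, more than the 144 in each 10% next to the middle. The outermost 10% at the ends held only 34 and 27. In 392 of them (32.3%) the summit lay within 200 bp of an edge, fewer than an even spread over these widths would give. That distance is less than the narrowest peak of the list, 212 bp. Over all members 540 (20.9%) had a summit within 200 bp of an edge. From 1300 to under 2000 bp the 10% on either side of the middle held 174 and 164 of 614 summits, and the outermost 10% at the ends 14 and 13.

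**Figure D3:**
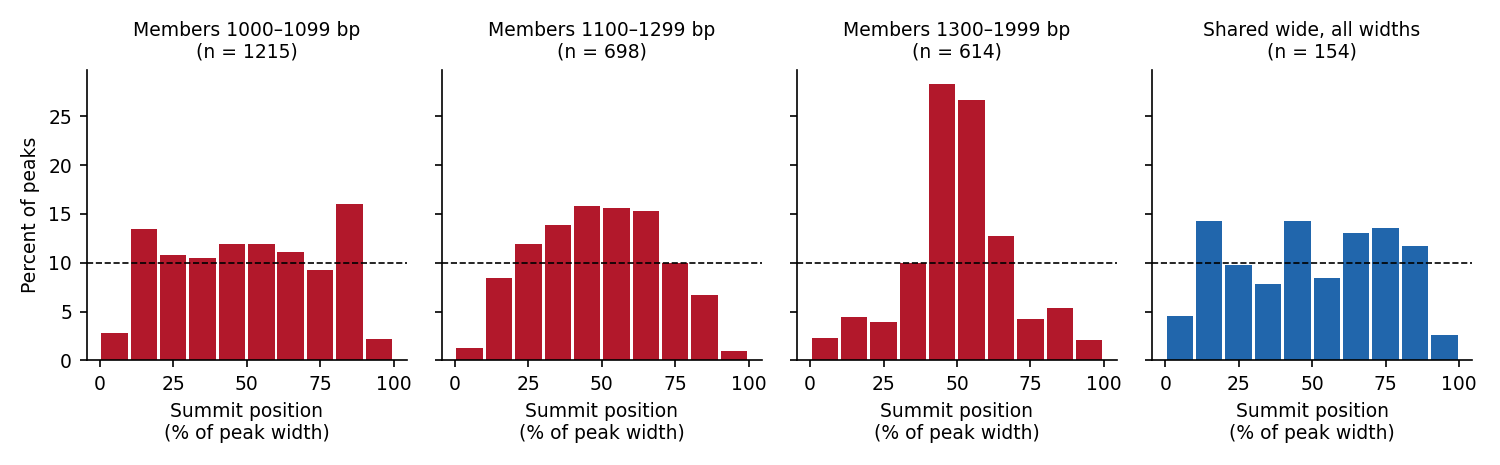
Position of the summit along the peak, in steps of 10% of its width, for members of 3 width classes and for the shared wide peaks, as a percentage of the peaks of each class. The dashed line at 10% marks an even spread. The steps on either side of the middle hold 28.3% and 26.7% of members from 1300 to under 2000 bp, and the step from 80% to 90% holds 16% of those under 1100 bp.

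Summits near an edge were at least as frequent in shared wide peaks, in 27 of 64 (42.2%) below 1100 bp and in 40 of 154 (26%, 19.2 to 33.6) over all widths. Centred summits at the larger widths were less frequent in shared wide peaks and in the wide peaks of other lists. From 1300 to under 2000 bp, 338 of 614 members (55%, 51 to 59) had a centred summit. It was 13 of only 38 shared wide peaks (34.2%, 19.6 to 51.4), a share that rests on few peaks. In the same widths it was 18 of 110 (16.4%) in brain replicate 1, 55 of 268 (20.5%) in fat body replicate 1 and 19 of 87 (21.8%) in fat body replicate 2. Below 1300 bp the members, at 26.6%, were again above the shared wide peaks, at 17.7% (20 of 113), but below the other lists, at 29.7%, 29.7% and 33.9%. Over all widths, 860 members (33.3%, 31.5 to 35.1) and 35 shared wide peaks (22.7%, 16.4 to 30.2) were centred. Among the narrower peaks of the list it was 34.1% of those in no other list and 39.1% of those that overlap one. The members' share over all widths was thus not above that of the narrower peaks. The narrowest peaks are 212 bp in brain replicate 2 and 295, 279 and 293 bp in the other lists, and the part of this difference in summit place was not tested.

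Centred summits were also more frequent in stronger members. The members were split by fold into 5 equal parts, and the share rose from 24.2% (125 of 517) in the lowest, with a median fold of 5.63, to 47.6% (246 of 517) in the highest, with a median fold of 21.7. The median height went from 88 to 365 fragments, and the median width from 1090 to 1151 bp. Within the class of 1000 to under 1100 bp the share was 20.4% up to a fold of 12 and 42.5% (45 of 106) above 20. From 1100 to under 1300 bp it was 23.4% up to 12 and 50.4% (59 of 117) above 20. From 1300 to under 2000 bp it was 49.1% up to 12 and 73.3% (66 of 90) above 20. Fold and width thus each went with it up to 2000 bp, within these broad ranges. Up to a fold of 12 the share changed little with width below 1300 bp. Members of 2000 bp or more did not follow, with 25% up to a fold of 12 and 21.4% (3 of 14) above 20.

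The 5 members with the highest fold show the centred outline at its clearest. On sequence 1 at 7756920 to 7758319 the fold was 45.6, the height 2170 fragments over a background of 46.6, and the summit lay at 50% of the 1400 bp. On sequence 24 at 8840117 to 8841610 these were 45.5, 1920 over 41.3, and 50.9% of 1494 bp. On sequence 23 at 13019978 to 13021515 they were 44.7, 2641 over 58.1, the highest summit of the list, and 50.3% of 1538 bp. The short sequence 94 holds the next at 16637 to 18247, with a fold of 44.3, 769 fragments over 16.4 and the summit at 47.9% of 1611 bp. On sequence 2 at 2049642 to 2050976 the fold was 44.2, with 1489 fragments over 32.7 and the summit at 50.8% of 1335 bp. All 5 summits were centred. The nearest peak of another list was 40595, 87889, 112463 and 14472 bp from those on sequences 1, 24, 23 and 2, and in each case it belonged to brain replicate 1. None of the 3 other lists has a peak on sequence 94.

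The 5 widest members have other outlines. The widest covers 3902 bp of sequence 27, at 9283969 to 9287870, with a fold of 8.43, a height of 298 fragments over 34.5 and its summit at 13.9% of the width. The next covers 3345 bp of sequence 24, at 5258106 to 5261450, with a fold of 11.5 from only 69 fragments over 5.08 and the summit at 66.6%. Sequence 17 at 1614910 to 1618015 (3106 bp) had a fold of 6.72 and sequence 11 at 16923909 to 16926967 (3059 bp) one of 8.66, with summits at 47.6% and 50.6%. The fifth, 2828 bp of the short sequence 86 at 13492 to 16319, had a fold of 23.8 and its summit at 20.9%. Their folds thus lie on both sides of the members' median of 9.97.

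The shared wide peaks mostly touched another list with a part of their width. Of the 154, 95 overlapped brain replicate 1, 95 fat body replicate 1 and 56 fat body replicate 2. All 3 lists overlapped 38 of them, 48 were overlapped by brain replicate 1 alone and 45 by fat body replicate 1 alone. Other lists covered a median of 39.6% of a shared wide peak (from 0.448% to 100%), and under 50% of it in 92 peaks. The summit lay inside a peak of another list in 100 of 154 (64.9%, 56.8 to 72.4), beside 5072 of 5518 narrower shared peaks (91.9%, 91.2 to 92.6).

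Shared wide peaks whose summit no other list covered had a higher median fold than those with a covered summit. The medians were 9.97 without a covered summit and 7.31 in the 100 peaks with one. The first equals the median of the members, but no spread was worked out for these smaller groups. In the narrower peaks the order was the opposite, 4.56 without and 5.52 with a covered summit. The 5 shared wide peaks with the highest fold show how small the common part can be. Folds and heights from another list describe its own call and are not on 1 scale with those of brain replicate 2. Sequence 15 at 10609094 to 10611117 had a fold of 38.9 and 1942 fragments, and fat body replicate 1 called 279 bp inside it (13.8% of the width) with a fold of 4.11 and 34 fragments. Sequence 13 at 11254235 to 11255263 had a fold of 27.1 and shared 220 bp with a brain replicate 1 peak of fold 5.31. Sequence 24 at 10454942 to 10455943 had a fold of 24.6 and contained a brain replicate 1 peak of 373 bp. Sequence 3 at 9862698 to 9863726 (fold 22.7) shared 270 bp with fat body replicate 1. Sequence 5 at 7836345 to 7837417 (fold 20.7) was met by all 3 lists, over 162 to 170 bp at its right end, while its summit lay at 47.7% of the width. In none of these 5 did another list cover over 37.2% of the width. The common part still held the summit on sequences 15, 24 and 3, and did not on sequences 13 and 5.

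Members lay as far from the peaks of other lists as the narrower peaks in no other list did. The median gap to the nearest peak of another list was 16661 bp for the 2525 members on sequences that have one (quartiles 6498 and 39589) and 17274 bp for the narrower peaks (6658 and 40868). At least 1 other list had a peak within 10 kb of 895 members (34.6%, 32.8 to 36.5) and of 34.4% of the narrower peaks (33.8 to 35). By list, brain replicate 1 lay within 10 kb of 20.1% of members, fat body replicate 1 of 20.4% and fat body replicate 2 of 17.5%. These lists hold 6759, 8556 and 5894 peaks, so the shares are not on 1 scale. The narrower peaks in no other list had 20.6%, 20.1% and 17%. Another list lay within 1 kb of 111 members (4.3%), and 119 (4.61%) were over 100 kb from one. For the narrower peaks in no other list these shares were 4.63% and 5.44%. The 3 farthest were on sequence 24 at 4136769 to 4137845 (262057 bp) and at 4157241 to 4158277 (241625 bp) and on sequence 22 at 11583697 to 11584767 (239969 bp), with folds of 6.88, 7.19 and 7.73.

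Members seldom lay next to each other, but the spacing of a class depends on how many peaks it holds. The median gap between neighbouring members was 107445 bp (quartiles 42417 and 222132, n = 2507 gaps), and 12 gaps were of 1 kb or less. It was 1529651 bp between shared wide peaks (127 gaps) and 11087 bp between narrower peaks in no other list (25505 gaps). Gaps of up to 10 kb were 6.02%, 0.787% and 46.1% in the same order. Whether members lie closer together or farther apart than their number alone would give was not tested. Linked at gaps of up to 10 kb, 2290 members stood alone, 270 formed 135 pairs and 18 formed 6 groups of 3. The single larger group held 5 members over 16234 bp of sequence 19, from 12353564 to 12369797, with widths of 1027, 1400, 1851, 1725 and 1045 bp. Their folds ran from 5.72 to 11.6 on heights of 24 to 52 fragments over backgrounds of 3.17 to 3.59, so all 5 were low peaks over a thin background. Of the groups of 3, one spanned 5633105 to 5647045 of sequence 2, its members having folds of 6.28, 24 and 8.84. Another spanned 688 to 14176 of the short sequence 164, where the folds were 36.6, 5.26 and 13.4. No peak of another list lay inside these 3 groups.

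With peaks of any width of the same list counted, members had no denser surroundings than other peaks. The nearest peak of brain replicate 2 was a median of 5819.5 bp from a member, 5572 bp from a shared wide peak and 5319 bp from a narrower peak in no other list. A second peak within 1 kb was present for 204 members (7.9%, 6.89 to 9.01), 8 shared wide peaks (5.19%, 2.27 to 9.98) and 11.2% of the narrower peaks (10.8 to 11.6).

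The members were spread unevenly over the 28 long sequences of the assembly. They averaged 5.66 per Mb, from 2.38 per Mb on sequence 1 (49 members in 20.6 Mb) to 11.5 per Mb on sequence 2 (96 members in 8.32 Mb). Sequence 24 had the largest number, 160 members or 9.23 per Mb, and sequences 26 and 28 followed with 9.07 and 8.81 per Mb. Spans were taken to the last base called in any list. As a share of all peaks of the list, members were 13.2% on sequence 2, 11.6% on sequence 24 and 4.76% on sequence 1, around a median of 7.2%.

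Shorter sequences had more members per Mb. The 7 sequences that span under 14 Mb had a median of 8.03 members per Mb and the 21 longer ones 4.91. Across the 28 sequences, density and span had Pearson's r of -0.737 and Spearman's rho of -0.704, given as a description, since all 28 points come from 1 library. All peaks of brain replicate 2 showed the same direction (r = -0.671, rho = -0.666), and so did members as a share of them (r = -0.642, rho = -0.611). Without sequences 1 and 2, r was -0.605 and rho -0.642 for members. In the other lists peaks per Mb went the other way, with r of 0.245 (rho 0.216) in brain replicate 1, 0.34 (0.324) in fat body replicate 1 and 0.313 (0.311) in fat body replicate 2. Without sequence 1 these were 0.308 (0.3), 0.49 (0.456) and 0.507 (0.454), and the members' r was -0.708 (rho -0.68).

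**Figure D4:**
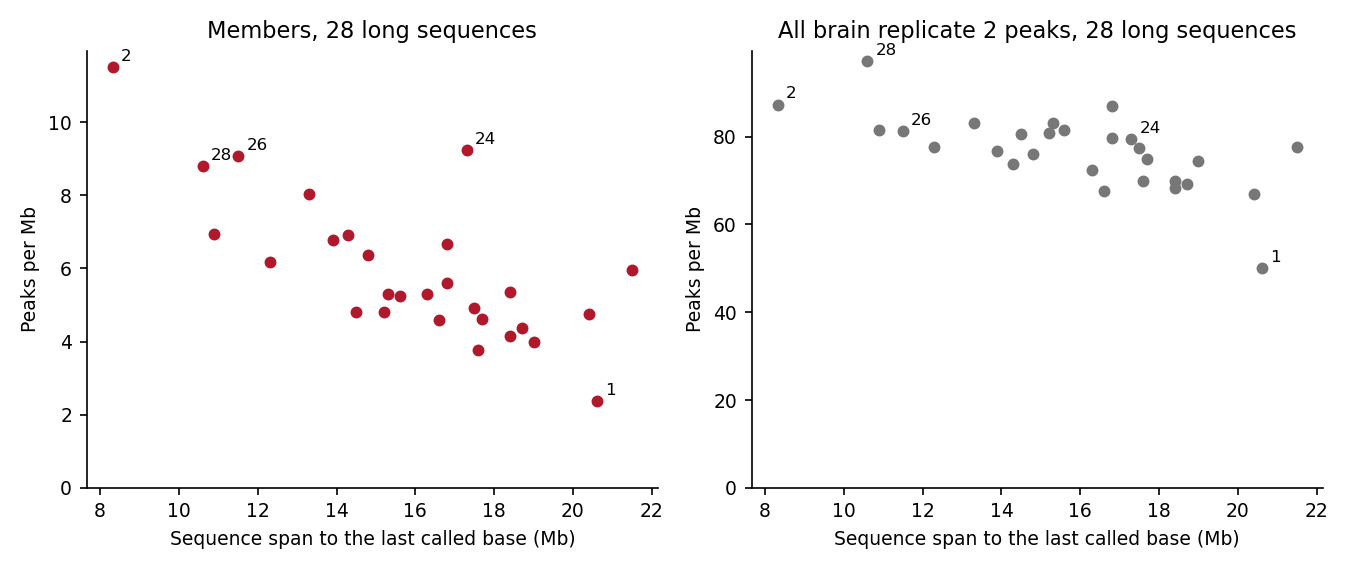
Members per Mb (left) and all peaks of brain replicate 2 per Mb (right) against sequence span in Mb, 1 point for each of the 28 long sequences, with the numbers of 5 sequences printed. Members fall from 11.5 per Mb on sequence 2 to 2.38 per Mb on sequence 1, and sequence 24 lies above others of its span at 9.23 per Mb.

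Sequence 1, the sparsest, was compared with the rest. By convention the silkworm Z chromosome is chromosome 1, but the lists name no chromosomes and whether sequence 1 belongs to it was not checked. Its density of members was 0.408 of that of the other long sequences together, lower than the 0.635 of the narrower peaks in no other list and the 0.651 of all peaks of brain replicate 2. In the other lists, this ratio for all peaks was 0.89 (brain replicate 1), 0.584 and 0.559 (fat body replicates 1 and 2). No shared wide peak lay on it, nor on sequence 2. Its 49 members had a median height of 124 fragments over 10.9, and those on the other long sequences 141 over 14, and the median folds were 12.1 and 9.74. Over all peaks of the list, the median background was 8.87 fragments on sequence 1 and 12.3 on the other long sequences, and it was also the lower on sequence 1 in the other 3 lists. The labels give no sex, and the part of background in the low count was not tested.

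Along the long sequences, members were fewest in the middle. The stretches from 40% to 50% and from 50% to 60% of the length held 154 and 198 of 2514 members (14% together), beside 24 of 153 shared wide peaks (15.7%), 17.6% of the narrower peaks in no other list and 22.4% of the narrower shared peaks. The shared wide peaks were thus close to the members in this. The 3 stretches nearest the start held 297, 287 and 284 members, and that from 80% to 90% held 332. In 24 of the 28 sequences, these middle stretches held a lower share of the members than of all peaks of the list. The outermost 250 kb at either end held 39 members (1.55%), beside 5 shared wide peaks (3.27%) and 2.84% and 3.82% of the narrower classes, so members were scarce at the tips as well.

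**Figure D5:**
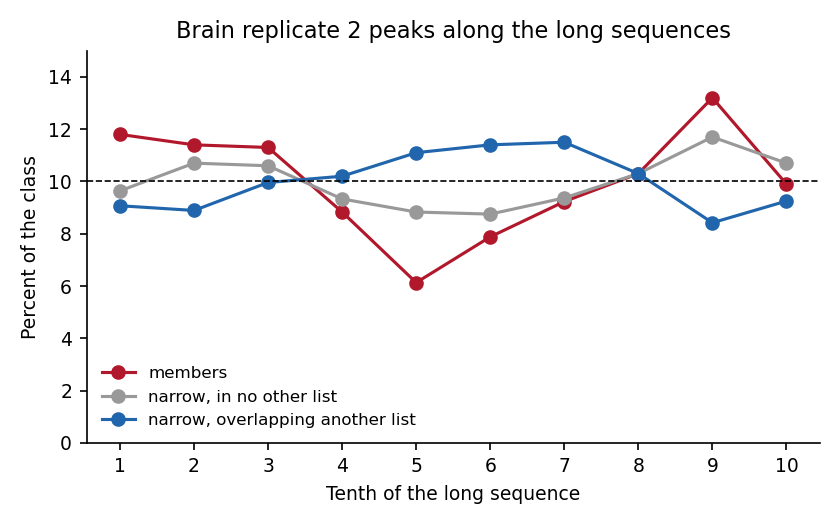
Percentage of each class of brain replicate 2 peaks in successive steps of 10% along the 28 long sequences, with 10% dashed. Members fall to 6.13% just before the middle and reach 13.2% in the last step but one, while narrower peaks that overlap another list are highest, at 11.5%, just past the middle.

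Short unplaced sequences held more than their part of the strong members. They carried 397 peaks of brain replicate 2, of which 69 (17.4%) were members, where members were 7.5% of the peaks on long sequences. These 69 lay on 48 sequences, at most 4 on any of them, and 58 lay on 42 sequences where no other list has a peak. So did 235 of the 310 narrower peaks in no other list on short sequences, so this was not particular to members. Peaks that overlap another list were few there, at 1 wide and 17 narrower. Brain replicate 1 had 39 peaks on short sequences in all, and fat body replicates 1 and 2 had 14 and 6. The median fold of members was 24 there and 9.8 on long sequences, over median backgrounds of 6.49 and 13.9 fragments. A fold above 20 was reached by 43 of the 69 (62.3%) and by 284 of the 2514 (11.3%) on long sequences. Centred summits were 44.9% and 33%. The highest of the 5 fold classes held 51 of the 69. The part of the lower background in these folds was not tested.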

How the data were processed

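Peak lists of 4 libraries were used, 2 of brain and 2 of fat body, each in its own file with no pooling. Tools named in the submitters' processing notes are MACS2 2.1.0, deepTools 3.3.0, Picard, Trim Galore and Bowtie2, without order or settings. For the build of the genome, the sources used here name none. The deposited lists, in narrowPeak layout, give the fold (a ratio at the summit), −log10 p, −log10 q and a score that is 10 times −log10 q rounded down (in at least 99.9% of peaks). The authors computed them all, and −log10 q began at 5.01 to 5.21 in the 4 lists.

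Groups follow the sample labels. Overlap means at least 1 shared bp. Summit height and local background were worked out by taking fold as (height + 1)/(background + 1) and p as a Poisson upper tail. They are called fragments here, but without the MACS2 settings it is unknown whether whole fragments or single reads were counted. Heights came out whole, within 0.02, in 100% of peaks. On 5000 peaks simulated from brain replicate 2, 100% were recovered. The simulation used the same 2 formulas, so it checks the solving and not the formulas. Gaps are bases between peak borders. Intervals are exact binomial (Clopper-Pearson) at 95% for shares and from order statistics for medians. They cover counting error only. No test was run: the members come from 1 library, so no replicate holds them. Python 3.11.15, numpy 2.4.6, pandas 2.3.3 and scipy 1.17.1 were used.

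Coordinates are 1-based, in the assembly of the lists, with sequences called by their number there. A gene table on the assembly ASM3026992v2, which is not that of the lists, was not used, nor was a genome sequence, so bases, G4 motifs, repeats and genes at the members were not analysed here. Named regions were the 5 widest members, the 5 of highest fold, the 5 shared wide peaks of highest fold, the 3 farthest from another list, the 3 longest groups, 3 on either side of the width limit, and the sequences of extreme density with sequence 1. Ties went to the higher −log10 q. Sequences 24, 26 and 28 were named after their values were seen. The members, named regions and alternatives were chosen with earlier results of these data known. Alternatives tried were width limits of 800 and 1500 bp, a gap of 1 kb or an overlap of 50% for sharing, a −log10 q of at least 20, long sequences only, and each other list left out.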

Additional observations from a re-analysis of the deposited data

How the results depend on the processing

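The members numbered 6356 with a width limit of 800 bp and 396 with 1500 bp. With 800 bp the median fold was 8.62 in members and 6.98 in shared wide peaks, the median summit distance from the centre 20.3% of the width, the median spacing 42857 bp and the share with a peak of the list within 1 kb 9.31%. With 1500 bp these were 10.5, 8.66, 8.55%, 593083 bp and 5.56%, the share in no other list was 95.7% and the density on sequence 1 was 0.223 of that elsewhere. The share in no other list was 90.3% when a gap of up to 1 kb also counted as shared (the shared median fold was then 8.67), 95.4% with an overlap of 50% and 97.5% with a −log10 q of at least 20, which left 4.94% of members with a peak within 1 kb. With 1 other list left out at a time, members numbered 2590 to 2631, the share was 94.6% to 96.1%, and the median folds were 9.91 to 9.97 in members and 7.37 to 7.89 in shared wide peaks. Of 71 values from the alternatives, 50 stayed within the main 95% interval (for the count, within 1.5 times). Members had the higher median fold in every alternative run. With 1500 bp the shared median rested on only 18 peaks, and the intervals of the 2 medians were 9.8 to 11 and 7.37 to 12. Leaving out brain replicate 2 leaves no members. No paired analysis was possible because the members come from 1 library and no test was run. List lengths and unknown read numbers limit what an absent overlap means.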
